A study of Mus musculus with 2 samples.

Results

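The loci of 5 T-box transcription factor genes of the developing heart (Tbx5, Tbx20, Tbx3, Tbx2 and Tbx18) were examined for binding of p300, a histone acetyltransferase and coactivator found at many active enhancers. A locus was a fixed window of the mouse build mm9, and its peaks were those with their midpoint in the window. The windows were chr5:119800001-120200000 for Tbx3, chr5:120200001-120600000 for Tbx5, chr9:24400001-24850000 for Tbx20, chr11:85450001-85850000 for Tbx2 and chr9:87350001-87800000 for Tbx18. Together they span 2100 kb and held 24 of the 3597 peaks listed for the heart and 0 of the 2786 peaks listed for the midbrain.

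The DNA bound by p300 was precipitated from the heart and the midbrain of embryos of the CD-1 mouse strain at embryonic day 11.5, males and females mixed, and sequenced (ChIP-seq). Each tissue was 1 library from a pool of about 150 embryos, with no genetic change or treatment named in the labels. The heart dissection is not described in the protocol text, and the tissue labels were not checked here against marker genes. Aligned reads numbered 1303861 for heart and 5869671 for midbrain. Values are in reads per 1000000 aligned reads (rpm), where a single heart read is worth 0.767 rpm and a single midbrain read 0.170 rpm. Without replicates, differences have no replicate check and no p-value is given. The intervals are exact 95% intervals for counting error alone, because each tissue has 1 library. Amplified reads lacking molecular identifiers may repeat a molecule, although the deposited reads of both libraries hold 0 repeated positions.

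T-box factors share a DNA-binding domain, the T-box, and act in the heart as activators or repressors of partly the same genes. Tbx5 and Tbx20 work with GATA and NK homeobox factors in chamber myocardium, whereas Tbx2 and Tbx3 repress the chamber programme in the atrioventricular canal and the conduction system. Tbx18 marks the sinus venosus, the sinus node region and the epicardium. In the RefSeq gene order (assembly GRCm38.p6, used for order only) Tbx3 and Tbx5 are direct neighbours, Tbx2 lies between Bcas3 and Tbx4, Tbx20 between Cypt4 and Herpud2, and Tbx18 between Cep162 and Nt5e. The positions of genes, exons and promoters on mm9 were not analysed here, so a peak is placed in a window and not assigned to a gene.

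The 5 windows differed widely in how many heart peaks they held. The Tbx20 window held 12, the Tbx5 window 5, the Tbx3 and Tbx2 windows 3 each and the Tbx18 window 1. When the genome was cut into 6317 tiles of 400 kb, 0.0317% of them (2 tiles) held 12 or more heart peaks. The tile on chromosome 9 that lies within the Tbx20 window is one of these. Tiles with at least 5 heart peaks made up 1.58%, tiles with at least 3 made up 6.16%, and tiles with at least 1 made up 30.8%. A window with a single heart peak, as at Tbx18, is therefore common in the heart list. The absence of midbrain peaks is common as well, since 74.4% of the tiles held none. That share was lower in tiles with heart peaks: 66.5% with 1, 57.8% with 3 and 48.9% with 5. All 4 tiles with 10 or more heart peaks held no midbrain peak.

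The 24 heart peaks as a set were close to the whole heart list in median rank, width and heart read number. Their median rank in the authors' list was 1726 (from 75 to 3394, 1 being the best) against 1799 for the whole list, their median width 691.5 bp against 662 bp, and their median heart read number 6 against 6. Of the 24 peaks, 6 ranked 500 or better, where 13.9% of the list does so by definition, and 5 held 10 or more heart reads, against 8.67% of the list. Among the 12 peaks outside the Tbx20 window, 2 ranked 500 or better and 2 held 10 or more heart reads. The loci thus held a few well-covered peaks among many that rest on 3 to 8 reads. Heart reads at these peaks came from both strands, 88 from the plus and 78 from the minus strand, and 2 peaks held reads of only 1 strand.

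**Figure D1:**
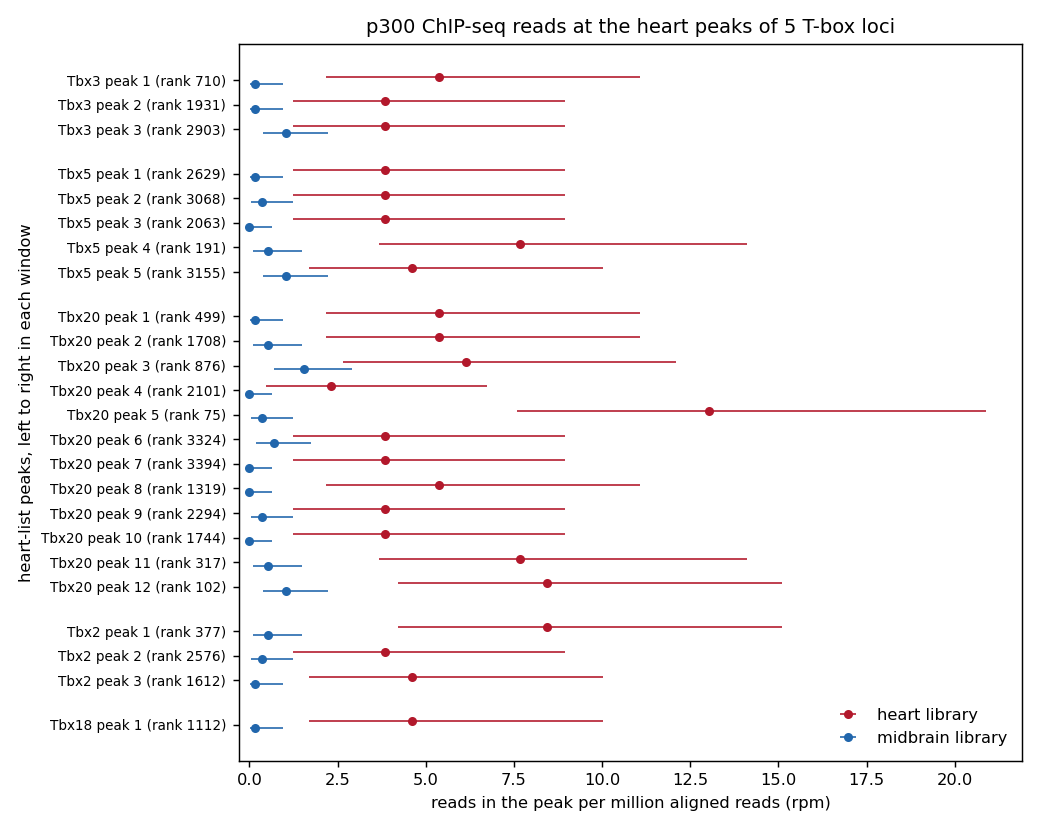
Reads in each of the 24 heart-list peaks of the 5 T-box windows, in rpm (horizontal axis), for the heart library (red) and the midbrain library (blue), with exact 95% Poisson intervals as bars; peaks are listed from the left to the right end of each window. The heart value is the higher at every peak, and the highest is 13.0 rpm at the fifth Tbx20 peak.

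Heart reads exceeded library-scaled midbrain reads at every one of the 24 peaks. Together they held 166 heart and 57 midbrain reads, and the ratio of heart to midbrain rpm was 13.1 (interval 9.65 to 18.0). Since the list was made from these same heart reads, the excess was partly built in and is given as a description. The same ratio was 7.94 (interval 7.77 to 8.11) over the whole heart list and 9.32 (interval 9.10 to 9.54) over the heart peaks that overlap no midbrain peak, the class to which all 24 belong. The interval of the ratio lay above 1 at 23 of the 24 peaks, near the 89.8% of the whole list. With the midbrain reads thinned to the depth of the heart library it lay above 1 at 11 of the 24, against 31.9% of the list. None of the 24 overlapped a midbrain peak, where 4.28% of the heart list does, and 5 held no midbrain read, where 11.5% of the list holds none.

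Tbx20 encodes a factor needed for growth of the chamber myocardium and for the endocardial cushions, and its window was the richest of the 5. The best-ranked peak of all the loci, at chr9:24692243-24693783 (rank 75), held 17 heart reads and 2 midbrain reads, or 13.0 and 0.341 rpm. Its ratio was 38.3 (interval 9.08 to 341), the highest lower bound among the 24 peaks. It is also the widest of them, at 1541 bp, and its heart reads lay on both strands (11 plus and 6 minus). The next, at chr9:24778511-24779298 (rank 102), held 11 heart and 6 midbrain reads, or 8.44 and 1.02 rpm (ratio 8.25, interval 2.8 to 27.2). The third by rank, at chr9:24760706-24761643 (rank 317), held 10 and 3 reads, or 7.67 and 0.511 rpm (ratio 15, interval 3.86 to 84.9). These wide intervals overlap, so the peaks cannot be ordered by their ratio.

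The other 9 Tbx20 peaks held 3 to 8 heart reads and 0 to 9 midbrain reads. No midbrain read, counted by its shifted 5 prime end, fell on 4 of them. Midbrain reads lengthened to 300 bp still reached into some of these, up to 2 deep at chr9:24724182-24725032 and 1 deep at chr9:24657020-24657301. At chr9:24724182-24725032 there were 7 heart reads against 0. The heart value is 10.5-fold higher when the midbrain is set to the limit that a count of 0 allows (3 reads, 0.511 rpm). That figure takes the heart reads as exact, and the counting interval of the ratio begins lower, at 6.49. At chr9:24716019-24716747 and chr9:24748296-24748616, with 5 heart reads each, the heart value is 7.5-fold higher against that limit, and the interval begins at 4.13. The peak at chr9:24657020-24657301 held 3 heart reads, all on the plus strand, so no fold is given. It is also the narrowest of the 24, at 282 bp.

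Along the window the 12 peaks fell into an isolated group of 3 and a looser row of 9. The 3 peaks at the left, chr9:24572381-24572886, chr9:24573966-24575006 and chr9:24576522-24577501, lie within 5.12 kb. A gap of 80.1 kb separates them from the 9 others, which extend over 122 kb. The group of 3 lay in the 10 kb bin with the most heart reads of all 5 windows, 55 reads or 42.2 rpm against 37 midbrain reads or 6.30 rpm (ratio 6.69, interval 4.33 to 10.4). It also held the peak with the most midbrain reads of the 24, chr9:24576522-24577501, with 9 midbrain and 8 heart reads (1.53 and 6.14 rpm, ratio 4.0, interval 1.34 to 11.7). Over the 3 peaks the ratio was 7.62 (22 heart and 13 midbrain reads, interval 3.67 to 16.5), and over the 9 others 18.0 (68 and 17 reads, interval 10.5 to 32.7). The intervals overlap, and this division was made after the positions and values had been seen. For scale, midbrain-list peaks held 17 midbrain reads in the median, and 1.36% of them held 9 or fewer.

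Tbx5, a limb and heart factor whose loss of one copy causes Holt-Oram syndrome in humans, had 5 heart peaks spread over 315 kb. The best-ranked, at chr5:120585802-120586603 (rank 191), held 10 heart and 3 midbrain reads, or 7.67 and 0.511 rpm (ratio 15, interval 3.86 to 84.9), and its 8 minus and 2 plus heart reads were unevenly split. A second peak stands directly beside it at chr5:120586731-120587651 (rank 3155), with 6 heart and 6 midbrain reads, or 4.60 and 1.02 rpm (ratio 4.50, interval 1.20 to 16.8). The midpoint of that second peak lies 12.8 kb inside the right edge of the window. With windows shortened by 50 kb on each side, this pair drops out and the Tbx5 window holds 3 heart peaks.

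The remaining Tbx5 peaks held 5 heart reads each. At chr5:120272489-120273085 (rank 2629) there was 1 midbrain read (ratio 22.5, interval 2.52 to 1065). At chr5:120325464-120326126 (rank 3068) there were 2 (ratio 11.3, interval 1.84 to 118). At chr5:120547462-120547982 (rank 2063) there was none. The heart value is 7.5-fold higher against the midbrain limit of 3 reads, and the counting interval of the ratio begins at 4.13. The 5 heart reads of this peak all lay on the plus strand. At 5 reads, the ratios of these peaks are known only within very wide bounds.

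At the scale of 10 kb, the densest heart reads of the Tbx5 window lay outside its listed peaks. The 10 kb bin chr5:120280001-120290000 held 34 heart and 33 midbrain reads, or 26.1 and 5.62 rpm (ratio 4.64, interval 2.79 to 7.73). Of 243434 bins of the genome with no heart peak and at least 5 midbrain reads, 0.023% held as many heart reads. The heart reads were spread over the bin, and 61.5% of it was covered. The heart coverage, which is the number of 300 bp read intervals over a position, was at most 4. That height is also the median of the highest heart coverage in the 24 peaks. Midbrain reads covered 62.25% of the bin, also at most 4 deep before any scaling to depth. Over 30 kb, chr5:120280001-120310000, the counts were 71 and 78 reads (ratio 4.10, interval 2.93 to 5.73). This stretch was singled out after its values had been seen.

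**Figure D2:**
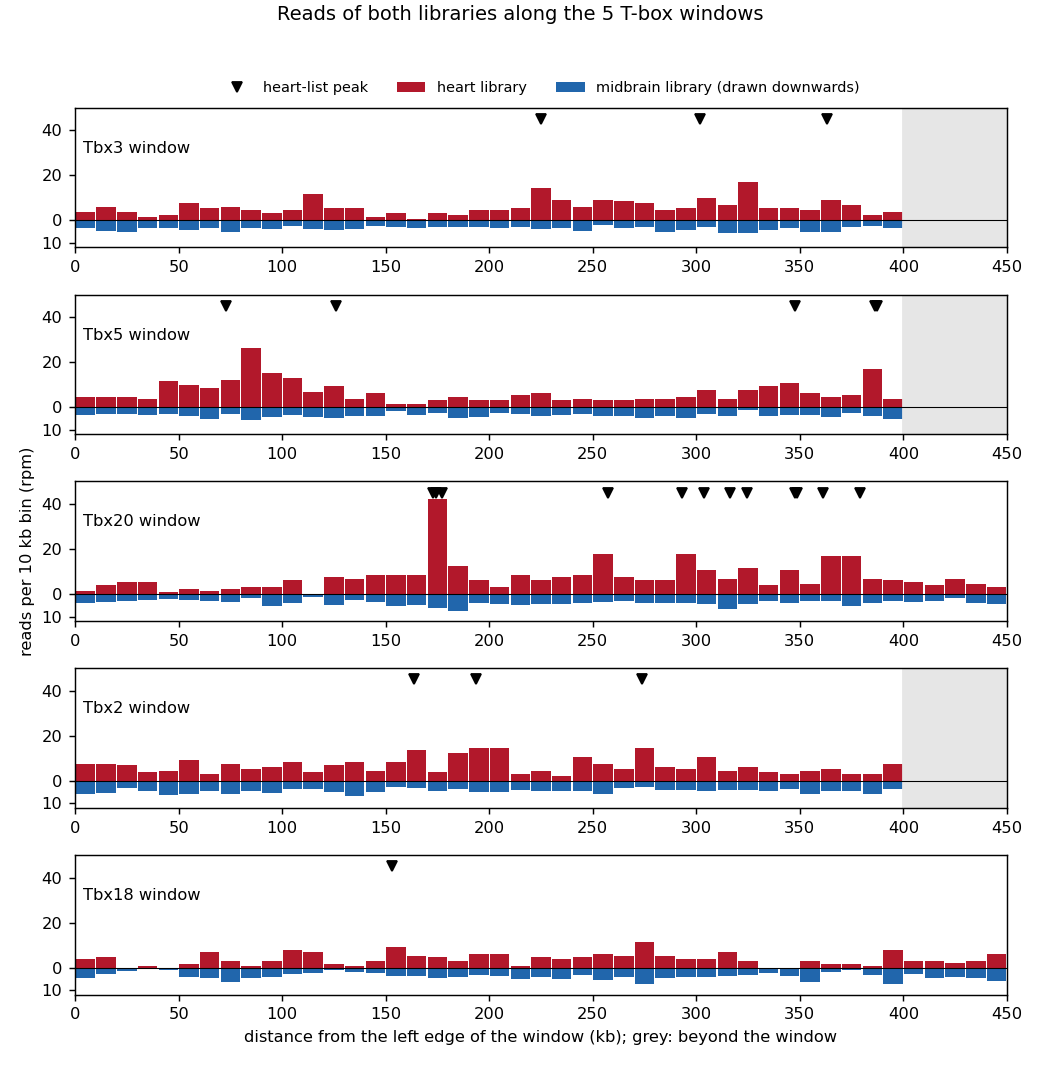
Reads of the heart library (red, upwards) and the midbrain library (blue, downwards) per 10 kb bin along the 5 windows, in rpm (vertical axis), against the distance from the left edge of the window in kb (horizontal axis); triangles mark heart-list peaks. The tallest heart bin, 42.2 rpm, lies under 3 Tbx20 peaks, and the tallest bin of the Tbx5 window, 26.1 rpm, under none.

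Tbx3, a repressor that maintains pacemaker and conduction tissue, had 3 heart peaks, all in the right part of the window and 61.4 and 76.8 kb apart. The peak at chr5:120024805-120025476 (rank 710) held 7 heart reads and 1 midbrain read, or 5.37 and 0.170 rpm (ratio 31.5, interval 4.05 to 1420), with 6 of the 7 heart reads on the minus strand. The peak at chr5:120101721-120102108 (rank 1931) held 5 heart reads and 1 midbrain read, or 3.83 and 0.170 rpm (ratio 22.5, interval 2.52 to 1065). The third, at chr5:120162999-120163630 (rank 2903), held 5 heart and 6 midbrain reads, or 3.83 and 1.02 rpm. Its ratio of 3.75 (interval 0.906 to 14.8) is the only one among the 24 whose interval includes 1.

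Tbx2, the related repressor of the atrioventricular canal and outflow tract, also had 3 heart peaks. The peak at chr11:85613121-85614303 (rank 377) held 11 heart and 3 midbrain reads, or 8.44 and 0.511 rpm (ratio 16.5, interval 4.36 to 92.1). At chr11:85643262-85643843 (rank 2576) there were 5 and 2 reads, or 3.83 and 0.341 rpm (ratio 11.3, interval 1.84 to 118). At chr11:85723473-85724220 (rank 1612) there were 6 and 1 reads, or 4.60 and 0.170 rpm (ratio 27.0, interval 3.28 to 1242). Only the first of these 3 holds more than 6 heart reads. Just beyond the right edge of this window, by 14.9 kb, a midbrain-list peak at chr11:85864584-85865255 (rank 2086) held 13 midbrain and 2 heart reads (heart over midbrain ratio 0.693, interval 0.0759 to 3.06), so the absence of midbrain peaks at Tbx2 depends on where the window ends.

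Tbx18 had a single heart peak, at chr9:87502819-87503402 (rank 1112), with 6 heart reads, 3 on each strand, and 1 midbrain read. These are 4.60 and 0.170 rpm, a ratio of 27.0 (interval 3.28 to 1242). The nearest other heart peaks lay 1706 kb beyond the left edge and 2355 kb beyond the right edge. In a bulk tissue library, fewer cells with a bound site and less binding per cell cannot be told apart, which bears on factors such as Tbx18 and Tbx3 that are known from small parts of the heart.

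Pooled by locus, the ratio at heart peaks was 13.5 at Tbx20 (90 heart and 30 midbrain reads, interval 8.85 to 21.2) and 11.6 at Tbx5 (31 and 12 reads, interval 5.81 to 24.87). It was 9.57 at Tbx3 (17 and 8 reads, interval 3.91 to 25.6), 16.5 at Tbx2 (22 and 6 reads, interval 6.49 to 49.8) and 27.0 at Tbx18 (6 reads and 1 read, as above). All 5 intervals overlap, and whether the loci differ in this ratio was not tested. The values also moved with the settings, by over 1.5 times at 4 loci, with every interval still above 1. With windows shortened by 50 kb on each side the ratio was 27.0 at Tbx3 and 22.5 at Tbx5, and with the better-ranked part (0.5) of the list 31.5 at Tbx3. With midbrain reads thinned it was 7.33 at Tbx2 and 18 at Tbx20, the latter a smaller move. Counting every read interval of 300 bp that overlaps the peak gave 13.5 at Tbx18. The share of the window's heart reads that fell in its heart peaks ranged from 2.69% at Tbx18 (Clopper-Pearson interval 0.994 to 5.76) to 20.1% at Tbx20 (interval 16.5 to 24.1), where peaks take up 2.04% of the window.

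Reads outside the listed peaks give a measure that peak calling did not choose. After reads within 1 kb of any peak of either list were left out, the heart library still exceeded the midbrain library in 4 of the 5 windows. The ratio was 1.69 at Tbx5 (313 heart and 832 midbrain reads, interval 1.48 to 1.93), 1.54 at Tbx20 (319 and 930 reads, interval 1.36 to 1.76), 1.44 at Tbx3 (273 and 854 reads, interval 1.25 to 1.65) and 1.42 at Tbx2 (327 and 1036 reads, interval 1.25 to 1.61). At Tbx18 it was 0.988 (214 and 975 reads, interval 0.848 to 1.15), and that interval includes 1 and lies below the other 4. Over all 5 windows it was 1.41 (interval 1.33 to 1.49).

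The counting intervals understate how far this ratio varies along the genome. Over all 400 kb tiles its median was 0.930, with 95% of tiles between 0.554 and 1.68, and its interval lay above 1 in 26.6% of tiles. A ratio as high as that of Tbx5 occurred in 2.37% of tiles, as high as that of Tbx20 in 5.33%, of Tbx3 in 8.74%, of Tbx2 in 9.42% and of Tbx18 in 43.4%. Its median was 0.823 in tiles with no heart peak, 1.11 with 1, 1.21 with 2, 1.33 with 3, 1.36 with 4 and 1.54 with 5, then 1.48 with 6 to 9 and 1.71 with 10 or more. Against tiles with an equal number of heart peaks, Tbx2 and Tbx3 lay between the median and the upper quartile of 1.51, Tbx5 just above its upper quartile of 1.67, and Tbx18 below its median. The 4 tiles with 10 or more heart peaks, Tbx20's own among them, ran from 1.37 to 2.19. The heart reads of the T-box windows outside peaks were thus near what heart-peak-bearing regions of this library show in general. Midbrain values varied less, from 36.5 rpm per 100 kb at Tbx5 to 45.1 at Tbx2 (median of tiles 39.6), whereas heart values ran from 36.7 at Tbx18 to 64.1 at Tbx2 (median of tiles 37.6).

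**Figure D3:**
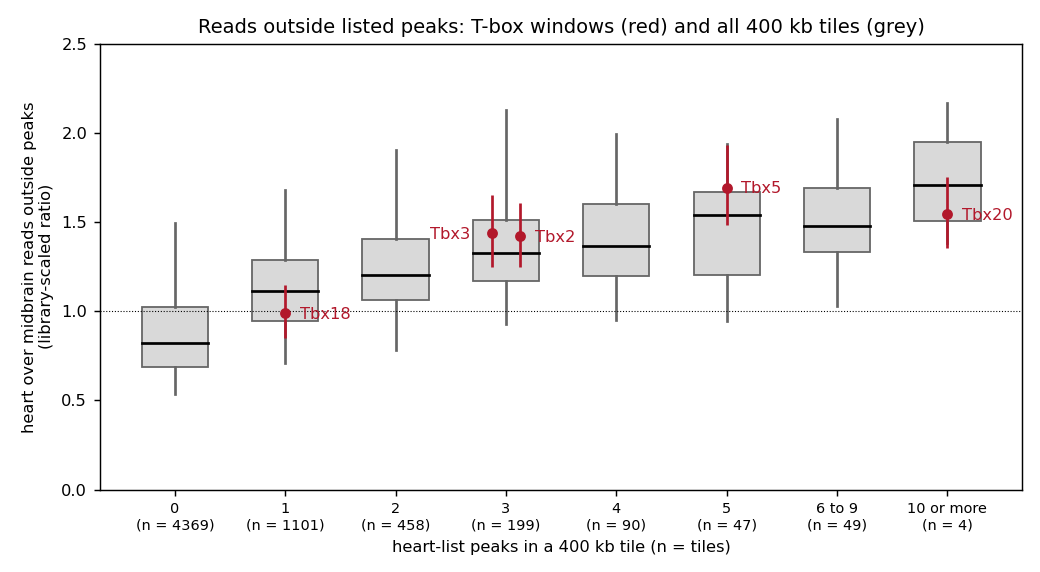
Heart over midbrain ratio of library-scaled reads outside listed peaks (vertical axis) for the 5 T-box windows (red points with 95% counting intervals) and for all 400 kb tiles, grouped by their number of heart-list peaks (horizontal axis; boxes: quartiles with the median, lines: central 95% of tiles). Tbx18 sits at 0.988 among tiles with 1 peak, and the 4 other windows sit between 1.42 and 1.69.

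At the scale of 10 kb bins, the interval of the ratio lay above 1 in 40 of the 210 bins of the windows, and 17 of these held a heart peak. Bins with a heart peak are high in part because the peaks were listed from these same heart reads. No genome share was computed for the 40 bins or the 17. Among bins with no heart peak and at least 5 midbrain reads, 23 of 189 lay above 1 (12.2%), against 4.02% of such bins in the genome. The genome share was not matched for heart peaks nearby, and 4369 of the 6317 tiles of 400 kb held none. The 23 bins were 8 of 36 at Tbx5, 6 of 37 at Tbx3, 5 of 37 at Tbx2, 2 of 36 at Tbx20 and 2 of 43 at Tbx18. Bins whose interval lay below 1 numbered 2, both at Tbx18, and the genome share of such bins was not computed. At Tbx20, 8 of the 10 bins above 1 held a peak. This count does not measure where its heart excess lay. Of the 448 heart reads of that window, 90 fell in its peaks, and the ratio outside peaks was 1.54.

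Read density at the peaks was set against flanks 5 to 10 kb away on either side. Heart reads were 9.75 times as dense in the 24 peaks as in the flanks (166 against 225 reads, interval 7.93 to 12), where the whole heart list gave 10.8 (interval 10.6 to 11). Midbrain reads, which did not choose these peaks, were 1.29 times as dense (57 against 586 reads, interval 0.961 to 1.69), and this interval includes 1. Over all heart peaks that overlap no midbrain peak the midbrain value was 1.69 (interval 1.65 to 1.72). Whether the T-box peaks differ from the others in this was not tested. With flanks 10 to 20 kb away the value was 1.34, with an interval of 1.01 to 1.75 that no longer includes 1.

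The deposited coverage tracks gave the same picture from the same reads. The highest heart coverage in a peak was 3 to 7 intervals (median 4) and the highest midbrain coverage 0 to 6 (median 2), before any scaling to depth. Unscaled, the midbrain reached or passed the heart at 4 of the 24 peaks, and scaled as rpm the heart was higher at all 24. In the average over the 24 peaks, heart coverage within 100 bp of the midpoint was 2.44 (scaled as rpm) against 0.332 at 2 to 3 kb, and midbrain coverage 0.176 against 0.127. The whole heart list gave 2.37 and 0.287 in the heart, and 0.268 and 0.163 in the midbrain. Summed over each window, the scaled coverage ratio ran from 1.02 at Tbx18 to 1.98 at Tbx20, as the read ratio of whole windows did (1.02 and 1.99).

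**Figure D4:**
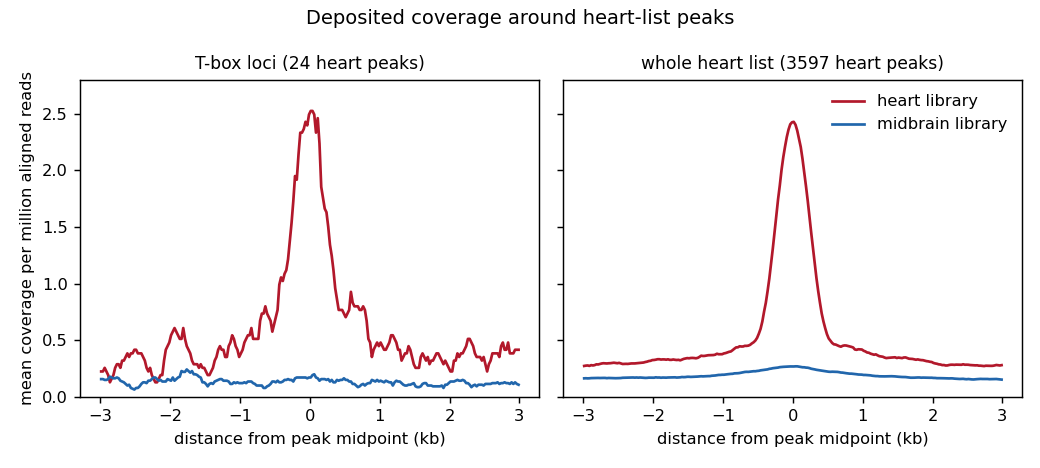
Mean deposited coverage, scaled as rpm, (vertical axis) against the distance from the peak midpoint in kb (horizontal axis) for the 24 heart peaks of the T-box loci (left) and all 3597 heart peaks (right), with the heart library in red and the midbrain library in blue. The heart curve rises to a mean of 2.44 within 100 bp of the midpoint at the T-box loci, while the midbrain mean there is 0.176.

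Heart peaks of these loci often had close neighbours, mainly at Tbx20. Another heart peak lay within 50 kb of 17 of the 24 peaks, against 44.7% of the heart list, and all 12 Tbx20 peaks were among the 17. Without the Tbx20 window the count was 5 of 12, or 41.7%, near the list as a whole. The median distance between neighbouring midpoints was 12.6 kb at Tbx20, 45.7 kb at Tbx5, 55.1 kb at Tbx2 and 69.1 kb at Tbx3.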

How the data were processed

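For each tissue the authors deposited their aligned reads, coverage and ranked peaks, on mm9 per the submitters' processing notes and the peak file headers. Reads were 36 bp, from DNA selected at 300 to 500 bp per the labels' protocols. The authors lengthened them to 300 bp per the file headers of the coverage tracks. The deposited coverage (signal) counts these intervals at 25 bp steps, unscaled. The word blat stands in the header of the heart reads. Peak caller, thresholds and control: not given in the sources used here.

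Reads were counted at their 5 prime end, shifted downstream by 24 bp (heart) or 42 bp (midbrain), which is the strand offset within peaks (48 and 85 bp, searched from 46 to 500 bp) shared evenly by the strands. The tools were Python 3.11.15 with scipy 1.17.1, numpy 2.4.6, pandas 2.3.3 and matplotlib 3.10.9. The offset profile was nearly flat and the heart value lies next to the search limit. Ratios carry exact conditional binomial intervals. They were run on counts simulated from the same binomial model, without peak selection or spread beyond counting. That run checks the calculation only, and not how well the intervals suit these data. Tiles with under 100 midbrain reads were left out.

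The loci, lists and tests were chosen with earlier results of these data known. Peaks given in full were the 3 best-ranked of each window and the one with the highest lower bound of the ratio; further peaks were named with their values in view. Alternatives moved the read position, the scaling, the depth, the window edges, the peak list, flanks and tiles. Peak sequences, and other T-box genes, which need mm9 sequence or annotation, were not analysed here.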

Additional observations from a re-analysis of the deposited data

How the results depend on the processing

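Across 18 settings, 201 recomputed values were compared with those reported. Of these, 191 stayed on their side of the threshold, within their interval or within 1.5 times a count. A direction could count as turned only where the reported interval left out 1, and 0 did so. At Tbx18, where the interval includes 1, the window ratio moved from 1.02 to 0.966 with lengthened windows. Its ratio outside peaks moved from 0.988 to 1.04 with thinned midbrain reads and to 1.02 with shortened windows. Some settings could not move a value, such as thinned midbrain reads for the heart enrichment, and placing peaks by any overlap changed no member. With the better-ranked part (0.5) of each list, 13 heart peaks lay in the windows, all 13 with an interval above 1, and 8 had a neighbour within 50 kb; this setting takes fewer peaks by construction, and leaves 1 peak each at Tbx3 and Tbx5. When the midbrain was thinned to as many reads as the heart, 11 peaks had an interval above 1. Windows lengthened by 50 kb took in 1 midbrain peak, and windows shortened by 50 kb left 3 Tbx5 peaks. The midbrain enrichment over flanks was 1.34 with flanks 10 to 20 kb away. Without the Tbx20 window, chosen after seeing the data as were tiles of 450 kb, 5 peaks had a neighbour within 50 kb. No ratio at midbrain peaks was computed because the windows hold none, nor a ratio for Tbx18 with thinned reads, where no midbrain read was left. No paired analysis was possible because each tissue has 1 library. Depth limits single peaks: 3 reads, which a count of 0 allows, are 2.30 rpm for heart and 0.511 rpm for midbrain, and most peaks of the loci hold fewer than 10 heart reads.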

Other observations

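Some positions of the windows outside listed peaks were covered as highly as the peaks. At Tbx3 the highest heart coverage was 6, at chr5:120120663-120120812, above the 3 to 5 of the 3 listed Tbx3 peaks. It came from 3 plus and 3 minus reads, and within 300 bp on each side lay 9 heart and 4 midbrain reads (ratio 10.1, interval 2.83 to 45). In the 4 other windows the highest heart coverage outside peaks was 3 or 4. These sites were picked for their coverage, so their ratios are a description.

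The midbrain library, with no listed peak in any window, reached coverages of 5 to 7 outside heart peaks, before any scaling to depth. Scaled as rpm, a midbrain coverage of 7 is 1.19, against 4.60 for the heart coverage of 6 at Tbx3. The sites of 7 were at chr5:120595588-120595687 in the Tbx5 window, where 9 midbrain reads and 1 heart read lay within 300 bp (heart over midbrain ratio 0.50, interval 0.0114 to 3.61), and at chr9:87563313-87563337 in the Tbx18 window, with 7 and 1 reads (ratio 0.643, interval 0.0143 to 5.01). Both intervals include 1. The covering midbrain reads were 1 plus and 6 minus at the Tbx5 site, and 3 plus and 4 minus at the Tbx18 site.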
